A study of Mus musculus with 12 samples.

Results

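The comparison set Ly6Chi moDC against CD14hi moDC, the pair of monocyte-derived dendritic cell (moDC) populations that were sorted from inflamed mouse lung. Its members were chosen by the population named in the sample title, which gave 6 of 12 arrays, with 3 arrays for each population. Ly6Chi moDC, called inf.moDCs in the titles, were sorted as CD11bhi Ly6Chi cells and CD14hi moDC as CD11bhi CD14hi cells. All cells came from C57BL/6J male mice aged 8 to 12 weeks that had received 100 ng lipopolysaccharide and 100 ug ovalbumin, a model protein antigen, into the airway in 50 ul of phosphate-buffered saline. Lungs were taken 16 h later, so both populations had the same exposure and no untreated cells are among these samples. Each array held RNA from cells pooled from 20 mice, sorted to a purity above 93% and amplified from 50 ng of total RNA. The other 6 arrays held 2 conventional DC (cDC) populations, CD14lo cDC and CD103+ cDC, from lungs of mice with the same exposure. Both cDC populations entered the fit and are shown beside the moDC only where they place a gene.

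Classical monocytes carry high Ly6C, leave the blood in a CCR2-dependent way and enter inflamed tissue, where they can take on features of dendritic cells or macrophages. Dendritic cells that have sensed a microbial product go through maturation, in which they raise costimulatory molecules and the chemokine receptor CCR7, reorganise the actin cytoskeleton and move to the draining lymph node to prime T cells. Monocyte-derived DC in the lung are known for chemokine production and for antigen presentation to T cells already in the tissue, while cDC depend on the growth factor receptor FLT3 and carry the transcription factor ZBTB46.

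Signals below are linear MAS5 intensities in arbitrary units, with 1 probe set standing for each gene. A difference is Ly6Chi moDC minus CD14hi moDC on the scale log2(signal + 50), given ± its standard error from a limma fit to all 12 arrays, and a fold is that difference taken out of the log, which understates the change of dim genes. Calls were made where p, adjusted by Benjamini-Hochberg over 10934 genes, was under 0.05. With 3 arrays per population, the number of arrays limits the precision. In RNA from sorted pools, fewer cells of a type and less RNA per cell cannot be told apart.

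All arrays had been scaled to the same trimmed mean, but their medians differed between the populations. The median signal of an array lay between 72.2 and 87.4 in Ly6Chi moDC and between 96.4 and 108 in CD14hi moDC, with no overlap, so the dimmer part of the arrays sat lower in Ly6Chi moDC. For Gapdh controls the ratio of 3' to 5' signal, which rises as RNA degrades, overlapped, at 1.48 to 1.91 in Ly6Chi moDC and 1.52 to 1.80 in CD14hi moDC. The correlation of log2 signals across genes was 0.979 to 0.983 among Ly6Chi moDC arrays, 0.977 to 0.981 among CD14hi moDC arrays and 0.928 to 0.937 between the populations, although genes are not independent replicates.

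The sort labels were checked first. Itgam encodes CD11b, by which both populations were gated, and its signals were 2390.1, 2113 and 2062 in Ly6Chi moDC, against 1479.5, 1493 and 1470.1 in CD14hi moDC. Those of Cd14 were 10965, 9073 and 12468 in Ly6Chi moDC, against 11277, 9409 and 14322 in CD14hi moDC, so the transcript of the molecule that names CD14hi moDC overlapped between the populations (log2 difference -0.10, adjusted p = 0.83). Itgax, which encodes CD11c, also overlapped, at 8641, 7734 and 7591 in Ly6Chi moDC, against 8724, 8570.3 and 9791 in CD14hi moDC. The Itgam difference of 0.55 was called, but the call was lost when any 1 of the 6 arrays was left out, after quantile normalization and in the fit with replicate block. Signals of the genes encoding Ly6C were not analysed here. Ccr2, a chemokine receptor of classical monocytes, read 8786, 9398 and 8509 in Ly6Chi moDC, against 4830.0, 5788 and 5533 in CD14hi moDC, higher in every Ly6Chi moDC array. By limma, log2 differences were 0.55 ± 0.18 for Itgam (adjusted p = 0.043), -0.18 ± 0.12 for Itgax (adjusted p = 0.35) and 0.72 ± 0.14 for Ccr2 (adjusted p = 0.0011).

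Of the genes that had been named as markers of the pair, Arg1 and Plac8 marked Ly6Chi moDC and Aldh1a2 and Ccl22 marked CD14hi moDC. Arg1, the cytosolic arginase that splits arginine into ornithine and urea, read 2981, 3459.6 and 2883 in Ly6Chi moDC, against 105, 119 and 282 in CD14hi moDC. Plac8, a cysteine-rich protein abundant in monocytes and granulocytes, read 11074, 12275 and 8778 in Ly6Chi moDC, against 1228, 919 and 2686 in CD14hi moDC. For both, every Ly6Chi moDC array lay above every CD14hi moDC array, and they ranked 1 and 5 from the top of the 10934 genes. Aldh1a2, the enzyme that makes retinoic acid from retinal, read 142, 127 and 122 in Ly6Chi moDC, against 4744, 4740.1 and 5642 in CD14hi moDC. For Ccl22, a ligand of CCR4 on regulatory and type 2 helper T cells, the signals were 1005, 359 and 645 in Ly6Chi moDC, against 16318, 14948 and 20640.0 in CD14hi moDC. Both were lower in every Ly6Chi moDC array and ranked 4 and 7 from the bottom. The fit gave log2 differences of 3.93 ± 0.29 for Arg1 (adjusted p = 1.5e-08), 2.83 ± 0.28 for Plac8 (adjusted p = 5.9e-07), -4.82 ± 0.15 for Aldh1a2 (adjusted p = 2.4e-13) and -4.68 ± 0.24 for Ccl22 (adjusted p = 2.2e-10).

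Across all genes, 745 were higher (6.81%) and 1248 lower (11.4%) in Ly6Chi moDC, together 18.2% of those tested. The larger changes lay mostly on the lower side. At least 2-fold, 198 genes were higher (1.81%) and 647 lower (5.92%), and at least 8-fold, 3 were higher (0.0274%) and 50 lower (0.457%). The 3 genes at least 8-fold higher were Arg1, Thbs1 and Ly6i. The 6 arrays did not overlap for 1853 genes in the higher direction (16.9%) and 2087 in the lower (19.1%), together 36%.

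The balance of directions depended on how bright the genes were and on the scaling. Among the 3645 dimmest genes, with a mean signal up to 343, 109 were higher and 577 lower, with a median difference of -0.16. Among the 3645 brightest, from 1203 up, 393 were higher and 304 lower, with a median difference of 0.06. The median difference of all genes was -0.01 as scaled by the authors. Centring each array on its median moved it to 0.21 and turned the split to 1853 higher and 832 lower, so that 69.0% of calls were higher in place of 37.4%. Quantile normalization kept the majority lower, with 815 higher and 1092 lower and a median difference of 0.05. The direction that held more calls thus turned under median centring and not under quantile normalization, and counts of several gene lists are also given under a rescaling. The background for each list's counts is 6.81% higher and 11.4% lower among all genes.

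**Figure D1:**
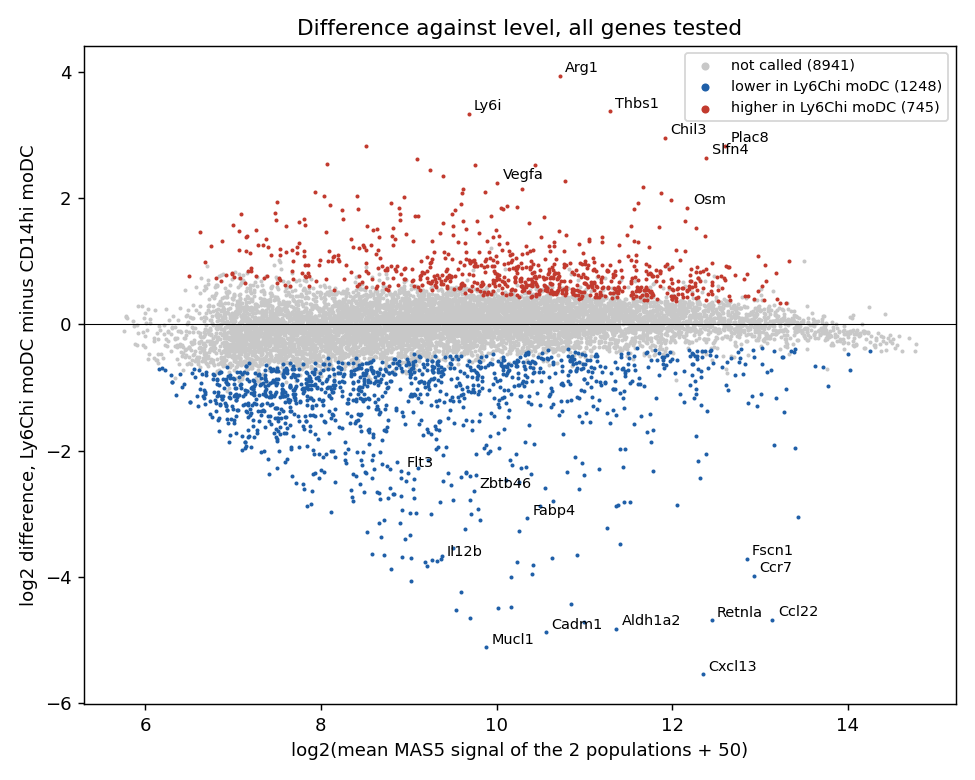
Log2 difference of Ly6Chi moDC minus CD14hi moDC (vertical axis) against log2 of the mean signal of both populations plus 50 (horizontal axis), with 1 point for each of the 10934 genes tested and the called genes coloured by direction. The largest differences are falls, among them Cxcl13 at -5.54, while the largest rise is Arg1 at 3.93.

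The largest rises after Arg1 included Thbs1, Ly6i and Chil3. Thbs1 encodes thrombospondin 1, a matrix glycoprotein that binds CD36 and CD47, and it read 5401, 3241 and 4688 in Ly6Chi moDC, against 391, 149 and 816 in CD14hi moDC. Ly6i, a surface protein of the family that holds Ly6C, read 1493, 1534 and 1295 in Ly6Chi moDC, against 97.1, 63.4 and 141 in CD14hi moDC. The family's members are alike in sequence, and cross-hybridisation between them was not tested. Chil3, a secreted chitinase-like protein of alternatively activated macrophages, rose 7.73-fold with wide spread among CD14hi moDC arrays, at 7190.0, 5519 and 7347 in Ly6Chi moDC, against 1653, 524 and 609.6 in CD14hi moDC. In the limma fit the log2 differences were 3.37 ± 0.45 for Thbs1 (adjusted p = 2.1e-05), 3.34 ± 0.24 for Ly6i (adjusted p = 9.7e-09) and 2.95 ± 0.64 for Chil3 (adjusted p = 0.0027).

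Cd177, a surface glycoprotein best known from neutrophils, was below the array median in CD14hi moDC and read 556, 518 and 696 in Ly6Chi moDC, against 42.6, 46.2 and 31.5 in CD14hi moDC. Phgdh, the first enzyme of serine synthesis, read 933, 823 and 903 in Ly6Chi moDC, against 134, 102 and 75.7 in CD14hi moDC. Vcan, the proteoglycan versican of classical monocytes, read 1618, 1392 and 1241 in Ly6Chi moDC, against 246, 151 and 226 in CD14hi moDC. No array of one population reached the range of the other for these genes. Hp, the haemoglobin-binding protein haptoglobin, rose 5.43-fold (log2 difference 2.44 ± 0.26, adjusted p = 1.3e-06), and the protease inhibitor Slpi rose 5.75-fold (log2 difference 2.52 ± 0.50, adjusted p = 0.0012). The uncharacterised D630023F18Rik completed the 12 largest rises with the interferon-inducible Slfn4, at log2 differences of 2.54 and 2.63. Limma differences on the log2 scale were 2.82 ± 0.23 for Cd177 (adjusted p = 4.9e-08), 2.62 ± 0.24 for Phgdh (adjusted p = 2.2e-07) and 2.52 ± 0.27 for Vcan (adjusted p = 1.8e-06).

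The 12 largest falls ranged from -4.42 to -5.54 on the log2 scale. Cxcl13, which attracts B cells through CXCR5, read 123, 207 and 159 in Ly6Chi moDC, against 11189, 12850.0 and 6448 in CD14hi moDC. Mucl1, a small mucin-like protein, read 3.68, 2.32 and 1.67 in Ly6Chi moDC, against 1820.3, 2101 and 1439 in CD14hi moDC. Cadm1, an immunoglobulin-family adhesion molecule that cross-presenting cDC also carry, read 56.5, 25.9 and 65.3 in Ly6Chi moDC, against 3647, 2641 and 2317 in CD14hi moDC. Mucl1 and Cadm1 thus lay below the array median in all Ly6Chi moDC arrays and Cxcl13 somewhat above it, while all CD14hi moDC arrays were bright. On the log2 scale the differences were -5.54 ± 0.41 for Cxcl13 (adjusted p = 1.4e-08), -5.11 ± 0.25 for Mucl1 (adjusted p = 1.1e-10) and -4.87 ± 0.21 for Cadm1 (adjusted p = 4.6e-11).

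Retnla, a secreted protein induced by interleukin 4 and 13 in macrophages, read 489, 369.9 and 272 in Ly6Chi moDC, against 10126, 11387 and 10592 in CD14hi moDC. It stood among the largest falls, although Arg1 and Chil3, which are induced by the same cytokines, stood among the largest rises. Nes, the intermediate filament nestin of neural progenitors, read 80.8, 9.51 and 71.5 in Ly6Chi moDC, against 2109.9, 2349 and 1976 in CD14hi moDC, and Gfra2, a co-receptor for neurturin, 103, 101 and 137 in Ly6Chi moDC, against 4236, 3272 and 2934 in CD14hi moDC. The muscle kinase gene Speg was lower by the same order (log2 difference -4.65 ± 0.30, adjusted p = 2.1e-09), as were Adam23, an ADAM protein without protease activity (log2 difference -4.52 ± 0.19, adjusted p = 2.8e-11), the adenylate cyclase gene Adcy6 (log2 difference -4.49 ± 0.21, adjusted p = 1.1e-10) and the serpin gene Serpinb6b (log2 difference -4.71 ± 0.22, adjusted p = 1.1e-10). Differences on the log2 scale came to -4.68 ± 0.35 for Retnla (adjusted p = 1.7e-08), -4.48 ± 0.26 for Nes (adjusted p = 8.5e-10) and -4.42 ± 0.23 for Gfra2 (adjusted p = 2.3e-10).

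**Figure D2:**
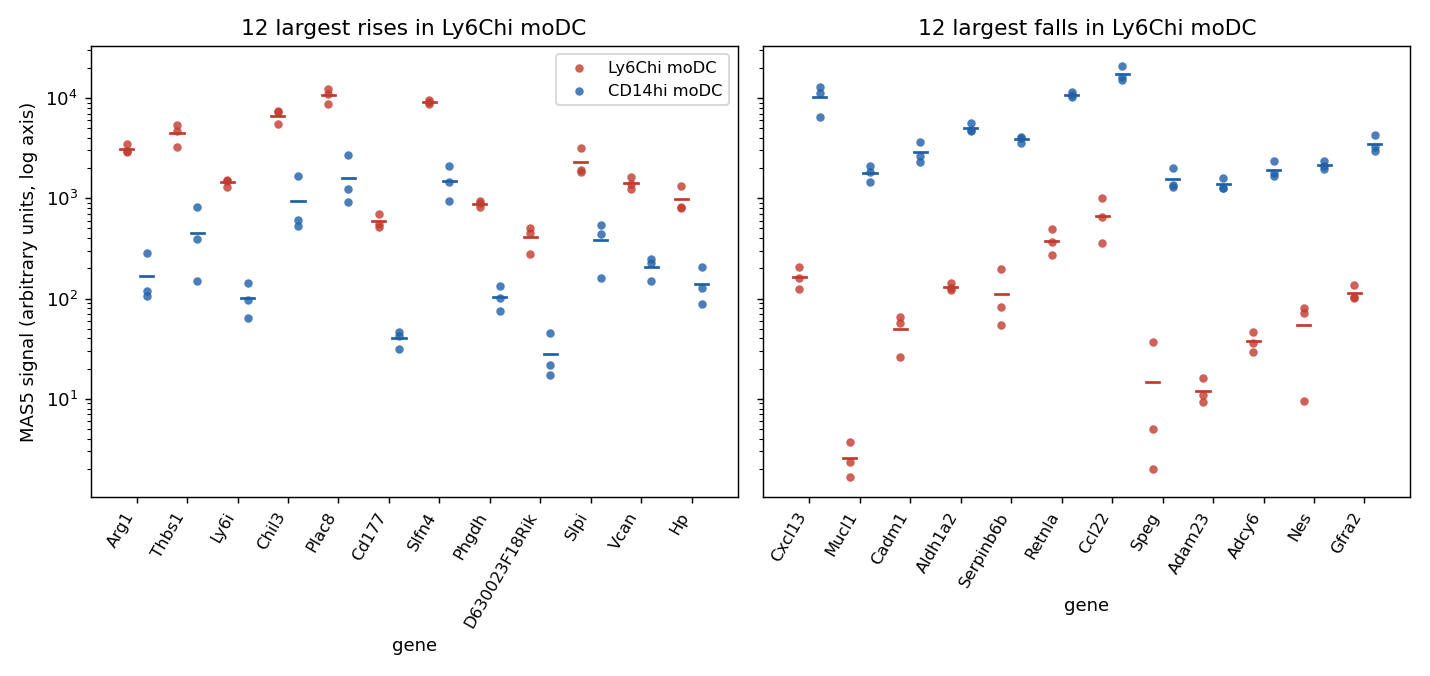
MAS5 signal in arbitrary units on a log axis of the 12 genes with the largest rise (left panel) and the 12 with the largest fall (right panel), with 1 point per array, the 3 Ly6Chi moDC arrays left of the 3 CD14hi moDC arrays and a line at each mean. The groups of points overlap for no gene, as the rule for showing them required.

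The conventional populations placed several of these genes. Aldh1a2 averaged 130.2 ± 10.2 in Ly6Chi moDC, 3069.9 ± 558 in CD14lo cDC, 4475 ± 338 in CD103+ cDC and 5042 ± 519 in CD14hi moDC (SD, n = 3 each). Ccl22 averaged 669.7 ± 323 in Ly6Chi moDC, 12613 ± 3050.2 in CD14lo cDC, 23241 ± 1453 in CD103+ cDC and 17302 ± 2971 in CD14hi moDC. Arg1 averaged 3108 ± 308 in Ly6Chi moDC, 36.8 ± 28.8 in CD14lo cDC, 48.9 ± 24.8 in CD103+ cDC and 169 ± 98.4 in CD14hi moDC. For Aldh1a2 and Ccl22, then, Ly6Chi moDC was the population with the low level, while Arg1 was bright there alone. Plac8 averaged 10709 ± 1777 in Ly6Chi moDC, 8064 ± 1303 in CD14lo cDC, 735 ± 231 in CD103+ cDC and 1611 ± 944 in CD14hi moDC, so it was bright in CD14lo cDC as well. Retnla averaged 377 ± 109 in Ly6Chi moDC, 1521 ± 965 in CD14lo cDC, 203 ± 74.1 in CD103+ cDC and 10702 ± 637 in CD14hi moDC. These levels describe the 4 sorts and were not tested here beyond the moDC pair.

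**Figure D3:**
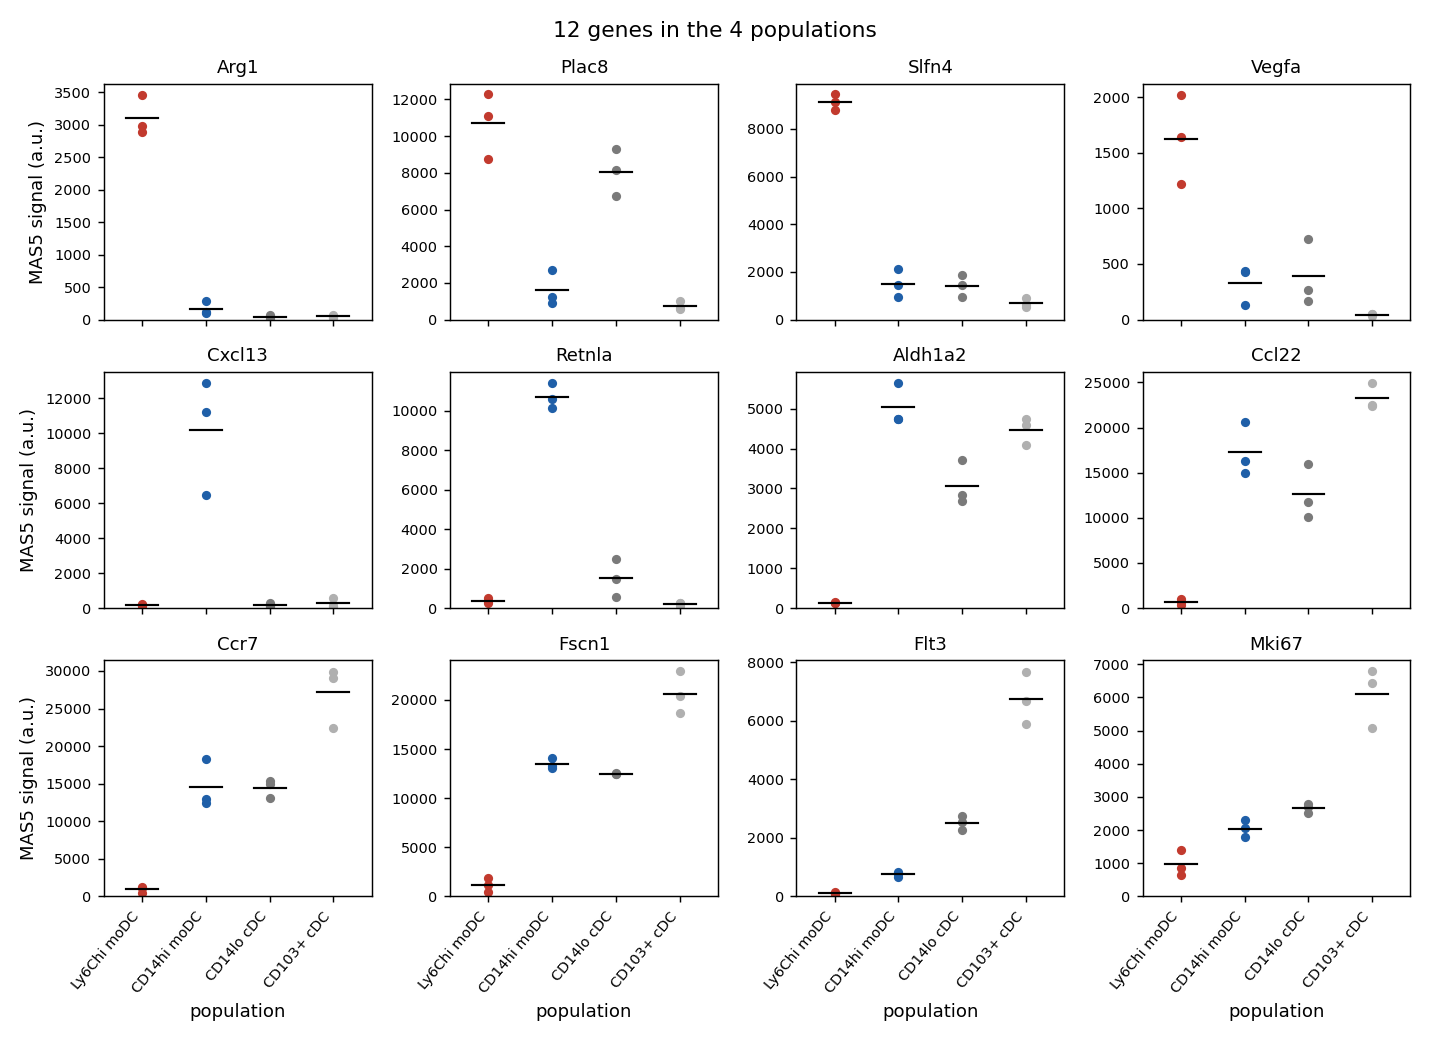
MAS5 signal in arbitrary units on linear axes of 12 genes in Ly6Chi moDC, CD14hi moDC, CD14lo cDC and CD103+ cDC, with 1 point per array and a line at the mean of 3 arrays. Arg1, Slfn4 and Vegfa are highest in Ly6Chi moDC, Cxcl13 and Retnla in CD14hi moDC, and Ccl22, Ccr7 and Fscn1 are high in CD14hi moDC and both cDC.

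Classical monocyte genes stood higher in Ly6Chi moDC as a group. Of 25 members tested, 17 were higher and 0 lower, against 6.81% and 11.4% of all genes, and the median difference was 1.14. At an unadjusted p under 0.05, 1 member was lower. The count was 17 after quantile normalization and 19 after median centring, and 11 remained in a limma test against a 1.5-fold difference. Beside Plac8, Vcan, Hp, Thbs1, Chil3 and Cd177, the called members included Clec4e (Mincle), a receptor for mycobacterial glycolipid (log2 difference 1.96 ± 0.39, adjusted p = 0.0013), the neutrophil collagenase Mmp8 (log2 difference 1.75 ± 0.25, adjusted p = 6.3e-05) and the transcription factors Cebpb (log2 difference 0.81 ± 0.16, adjusted p = 0.0017) and Klf4 (log2 difference 0.83 ± 0.20, adjusted p = 0.0056), which drive monocyte differentiation. Mgst1, an antioxidant transferase (1.91), Ms4a4c (1.40), the matrix protein Emilin2 (1.32) and the factor XIII subunit F13a1 (1.24) were called too, and were chosen for mention after their values were seen. Members that were not called include Fn1 (log2 difference 1.01), Cebpd (0.12) and S100a4 (-0.15).

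Several of these genes are shared with neutrophils, whose markers moved in the same direction. Of 12 neutrophil markers on the array, 6 passed the filter on dim genes and 5 of them were higher, namely S100a8, S100a9, Csf3r, Mmp8 and Cd177. S100a8, a subunit of calprotectin, read 1218, 1538 and 1014 in Ly6Chi moDC, against 345, 205 and 653 in CD14hi moDC, and the G-CSF receptor gene Csf3r read 1369, 1362 and 1868 in Ly6Chi moDC, against 669, 508 and 596 in CD14hi moDC. The signal summed over the 12 markers was 5180.4 to 5399.9 in Ly6Chi moDC and 1412 to 2671 in CD14hi moDC. Cxcr2, Camp, Ngp, Ltf, Elane and Mpo did not pass the filter, and none of them had a mean above 77.5 in either population. Lcn2, a further granule gene, was not called (log2 difference -0.16 ± 0.28, adjusted p = 0.76). The part of neutrophils in the monocyte list was not tested. The S100a8 and S100a9 calls were both lost without Ly6Chi moDC replicate 1 or 2 or CD14hi moDC replicate 1 or 2, and that of S100a9 also without Ly6Chi moDC replicate 3, whereas those of Csf3r, Mmp8 and Cd177 held in each of these fits. Limma gave log2 differences of 1.64 ± 0.47 for S100a8 (adjusted p = 0.02) and 1.30 ± 0.24 for Csf3r (adjusted p = 8.3e-04).

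Interferon-stimulated genes, which cells switch on through interferon receptors to restrict viruses, were likewise higher in Ly6Chi moDC. Of 38 members tested, 27 were higher and 0 lower, with a median difference of 0.74. At an unadjusted p under 0.05, 1 was lower. The differences were small but tight, with arrays that did not overlap in the higher direction for 33 of 38 members, against 16.9% of all genes. The count was 28 after quantile normalization and 31 after median centring, and 4 remained in the test against 1.5-fold.

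Among sensors and effectors, Slfn4, a schlafen of myeloid cells, read 9453, 9109 and 8795 in Ly6Chi moDC, against 1446, 942 and 2113 in CD14hi moDC. Isg20, an exonuclease that degrades viral RNA, read 1999, 1909.6 and 2249 in Ly6Chi moDC, against 712, 633 and 934 in CD14hi moDC, and Dhx58 (LGP2), a helicase that tunes RNA sensing, 1544, 1929 and 1935 in Ly6Chi moDC, against 778, 731 and 801 in CD14hi moDC. In all of these the Ly6Chi moDC arrays lay above the CD14hi moDC arrays. The DNA-binding Ifi204 rose 2.40-fold (log2 difference 1.27 ± 0.23, adjusted p = 6.6e-04), and Ifi47, an immunity-related GTPase, rose 2.46-fold (log2 difference 1.30 ± 0.13, adjusted p = 8.7e-07). Cxcl10 (0.42), Mx1 (0.03), Stat2 (0.15) and Ifitm3 (0.00) were not called. By limma, log2 differences were 2.63 ± 0.26 for Slfn4 (adjusted p = 5.0e-07), 1.39 ± 0.26 for Isg20 (adjusted p = 7.9e-04) and 1.17 ± 0.15 for Dhx58 (adjusted p = 1.7e-05).

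Promoters of the called interferon-stimulated genes are shown because the members moved together. The RefSeq promoter table on GRCm38.p6, with 250 bases before to 50 after each gene's start, matched 21 of the 27 called members with 26 windows. The core of the interferon-stimulated response element was searched as a pair of GAAA runs with any 2 bases between them, on both strands, with overlapping matches counted, and a match of 1 motif may overlap a match of another. It stood in 14 of 26 windows (53.8%), against 3.44% of all 32851 windows in the table and 3.15% of windows of genes tested. In the windows of all genes called and at least 2-fold higher its share was 5.15%, and at least 2-fold lower 4.07%. The list was made of genes known to respond to interferon, and its members that were not called were not compared. A link of the motif to the rise was therefore not tested. A match is a description of letters, not of a bound site. Only windows that held the motif could be printed, so its presence in those below was fixed by the choice. The windows of Ddx58 (RIG-I, a sensor of viral RNA; chr4:40239776-40240075, minus strand), Irgm1 (a GTPase acting on pathogen vacuoles; chr11:48871371-48871670, minus strand) and Ifit3 (an effector that binds with other IFIT proteins to viral RNA; chr19:34583279-34583578, plus strand) are printed 5′ to 3′ with every match in capitals, and were chosen after their values were seen.
Ddx58: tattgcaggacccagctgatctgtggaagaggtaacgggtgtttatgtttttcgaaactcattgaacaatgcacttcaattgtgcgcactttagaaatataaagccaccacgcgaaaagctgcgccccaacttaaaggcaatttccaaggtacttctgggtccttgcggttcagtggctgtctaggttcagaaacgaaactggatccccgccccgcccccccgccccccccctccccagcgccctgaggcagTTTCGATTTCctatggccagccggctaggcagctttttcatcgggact
Irgm1: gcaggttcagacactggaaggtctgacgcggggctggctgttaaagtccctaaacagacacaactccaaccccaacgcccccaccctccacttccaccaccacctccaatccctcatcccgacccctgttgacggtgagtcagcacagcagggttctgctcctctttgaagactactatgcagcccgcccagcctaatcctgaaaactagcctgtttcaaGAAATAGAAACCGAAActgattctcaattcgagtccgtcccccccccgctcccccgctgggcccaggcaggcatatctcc
Ifit3: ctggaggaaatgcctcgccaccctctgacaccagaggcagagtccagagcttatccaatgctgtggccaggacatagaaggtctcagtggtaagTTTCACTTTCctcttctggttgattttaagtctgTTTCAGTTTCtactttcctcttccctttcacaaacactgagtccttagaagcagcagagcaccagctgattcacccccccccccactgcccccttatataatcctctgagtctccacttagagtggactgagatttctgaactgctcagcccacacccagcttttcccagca
The letters matched lie on either strand, so a capital run may read as the reverse complement. Signals of Ddx58 were 2523, 1992 and 2560.5 in Ly6Chi moDC, against 1088, 1078 and 919 in CD14hi moDC, of Irgm1 732, 738 and 841 in Ly6Chi moDC, against 453, 314 and 301 in CD14hi moDC and of Ifit3 3566, 3617 and 4527 in Ly6Chi moDC, against 1861, 1655 and 2188 in CD14hi moDC. All 3 were higher in every Ly6Chi moDC array. The fit gave log2 differences of 1.15 ± 0.15 for Ddx58 (adjusted p = 1.7e-05), 1.03 ± 0.18 for Irgm1 (adjusted p = 4.0e-04) and 1.02 ± 0.18 for Ifit3 (adjusted p = 4.4e-04).

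Genes of DC maturation and costimulation were lower in Ly6Chi moDC. Of 27 members tested, 21 were lower and 0 higher, against 11.4% and 6.81% of all genes, with 0 higher also at an unadjusted p under 0.05, and the median difference was -1.20. The count was 22 after quantile normalization, 18 after median centring and 15 in the test against 1.5-fold. Ccr7, the receptor that guides mature DC to lymph nodes, read 1188, 442 and 1178 in Ly6Chi moDC, against 12390.0, 12951 and 18341 in CD14hi moDC. Fscn1, the actin-bundling protein fascin of mature DC, read 1206, 412 and 1829 in Ly6Chi moDC, against 13275, 13121 and 14052 in CD14hi moDC. Cd200, which signals to the inhibitory receptor CD200R on myeloid cells, read 137, 80.1 and 47.8 in Ly6Chi moDC, against 2408, 1556 and 2379 in CD14hi moDC. All 3 were lower in every Ly6Chi moDC array. In the limma fit the log2 differences were -3.99 ± 0.26 for Ccr7 (adjusted p = 2.4e-09), -3.72 ± 0.30 for Fscn1 (adjusted p = 5.9e-08) and -3.99 ± 0.22 for Cd200 (adjusted p = 4.8e-10).

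Smaller falls reached the costimulatory molecules themselves. Relb, the NF-kappaB subunit needed for DC maturation, was lower (log2 difference -1.44 ± 0.20, adjusted p = 3.2e-05), and Socs2 fell further (log2 difference -2.26 ± 0.19, adjusted p = 6.6e-08). Among members chosen after their values were seen, Tnfrsf9 (4-1BB) had a difference of -3.69, Tbc1d4 of -3.01, Stat4 of -2.42, Cd70 of -1.67 and Icosl of -0.83. Cd83, Cd86 and Cd40 differed by -0.75, -0.72 and -0.74. These 3 were not called after median centring, and Cd86 and Cd40 were not called without CD14hi moDC replicate 3, nor Cd40 without Ly6Chi moDC replicate 1. Cd80 (0.27), Cd274 (-0.52) and Pdcd1lg2 (-0.50) were not called.

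**Figure D4:**
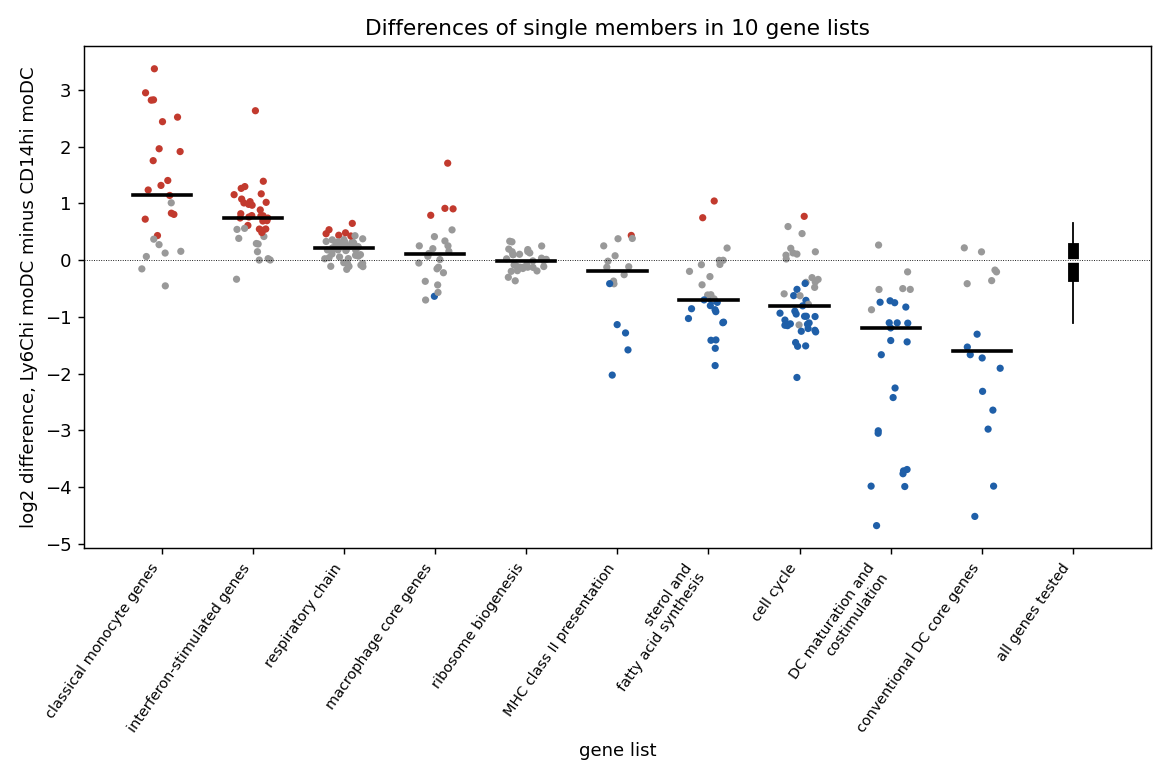
Log2 difference of Ly6Chi moDC minus CD14hi moDC (vertical axis) of the tested members of 10 gene lists (horizontal axis), with 1 point per gene, red for called higher, blue for called lower and grey for not called, and a line at each list's median. The box at the right gives the quartiles of all genes tested. Most classical monocyte and interferon-stimulated members lie above 0, and most DC maturation, conventional DC, cell cycle and sterol synthesis members below it.

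Core genes of conventional DC showed the same direction as maturation genes. Of 16 members tested, 10 were lower and 0 higher, with 0 higher at an unadjusted p under 0.05, and the median difference was -1.60. The count of 10 was the same after both rescalings and in the test against 1.5-fold. Flt3, the receptor on which cDC depend, read 153, 95.1 and 91.5 in Ly6Chi moDC, against 833, 658 and 769 in CD14hi moDC. Zbtb46, a transcription factor of cDC and their precursors, read 257, 178 and 131 in Ly6Chi moDC, against 1489.6, 1142 and 1638 in CD14hi moDC. Dpp4, the peptidase CD26 that marks lung cDC, read 292, 334 and 392 in Ly6Chi moDC, against 1074, 1329 and 1928 in CD14hi moDC. All 3 were lower in every Ly6Chi moDC array. Limma differences on the log2 scale were -2.31 ± 0.17 for Flt3 (adjusted p = 1.3e-08), -2.65 ± 0.20 for Zbtb46 (adjusted p = 1.7e-08) and -1.91 ± 0.18 for Dpp4 (adjusted p = 3.0e-07).

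Flt3 averaged 113 ± 34.3 in Ly6Chi moDC and 753 ± 88.4 in CD14hi moDC, beside 2513 ± 246 in CD14lo cDC and 6749 ± 891 in CD103+ cDC (SD, n = 3 each). Dpp4 averaged 339 ± 50.4 in Ly6Chi moDC and 1444 ± 439 in CD14hi moDC, beside 3794 ± 121 in CD14lo cDC and 4821 ± 505 in CD103+ cDC. In mean level CD14hi moDC thus lay between Ly6Chi moDC and both cDC for each gene. Signals summed over the list were 15918 to 17793 in Ly6Chi moDC and 37869 to 47757 in CD14hi moDC. The part of cDC in the CD14hi moDC sort was not tested. Ccr7 is a member of the maturation list and of the cDC list, so those counts share a gene. Other lists below share called genes too. Ccl22 and Ccl17 are in the maturation and chemokine ligand lists, and Relb and Traf1 in the maturation and NF-kappaB lists. Irf4 and Zbtb46 are in the cDC and lineage transcription factor lists. Counts of different lists are therefore not separate observations.

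Lineage transcription factors split. Of 28 tested, 6 were higher (21.4%) and 5 lower (17.9%), or 8 and 5 after median centring, with a median difference of 0.08. In the test against 1.5-fold, 0 were higher and 3 lower. Gfi1, a transcriptional repressor that favours granulocytes over monocytes, was higher (log2 difference 1.35 ± 0.31, adjusted p = 0.0045), as were Ahr, the receptor for aryl hydrocarbons (log2 difference 0.99 ± 0.15, adjusted p = 9.5e-05), and Nfil3 (log2 difference 0.88 ± 0.18, adjusted p = 0.002). Irf4, which shapes cDC2 and monocyte-derived DC, was lower and read 506, 519 and 282 in Ly6Chi moDC, against 1336, 1318 and 1956 in CD14hi moDC. Id2, an inhibitor of E proteins needed for DC development, was lower (log2 difference -1.05 ± 0.13, adjusted p = 1.1e-05), and so was Stat5a (log2 difference -0.95 ± 0.13, adjusted p = 2.7e-05). Irf8 (0.33), Spi1 (0.13), Zeb2 (0.35) and Cebpa (0.11) were not called. Irf4 differed by -1.73 ± 0.23 (adjusted p = 2.9e-05) on the log2 scale.

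Of 23 macrophage genes tested, 4 were higher (17.4%) and 1 lower (4.35%), against 6.81% and 11.4% of all genes, with a median of 0.12. Higher members numbered 7 after median centring and 0 in the test against 1.5-fold. At an unadjusted p under 0.05, 5 were higher and 3 lower. The lower call was Adgre1 (log2 difference -0.64 ± 0.17, adjusted p = 0.013). It was lost after median centring, in the test against 1.5-fold and without Ly6Chi moDC replicate 1 or CD14hi moDC replicate 2. Fcgr1, the high-affinity IgG receptor CD64 used to separate moDC from cDC, read 8028, 7384 and 9326 in Ly6Chi moDC, against 4399, 4381 and 4308 in CD14hi moDC. Gpnmb, a glycoprotein of lipid-laden macrophages, read 2212, 1066 and 1108 in Ly6Chi moDC, against 447, 281 and 457 in CD14hi moDC, and the adaptor Dok3 1373, 2143 and 1441 in Ly6Chi moDC, against 804, 873 and 833 in CD14hi moDC. These were higher in every Ly6Chi moDC array, while Mertk, an apoptotic cell receptor of macrophages, overlapped (log2 difference 0.12 ± 0.27, adjusted p = 0.83). Differences on the log2 scale came to 0.90 ± 0.20 for Fcgr1 (adjusted p = 0.0033), 1.71 ± 0.35 for Gpnmb (adjusted p = 0.0017) and 0.91 ± 0.20 for Dok3 (adjusted p = 0.0025).

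Among peptide presentation genes, 6 class II genes and 1 class I gene were called. Of 16 class II presentation genes tested, 5 were lower and 1 higher. After median centring 4 were lower and 4 higher, and after quantile normalization 5 and 0. The median was -0.19 and became 0.01 after quantile normalization and 0.03 after median centring. H2-Eb2, a paralog of the E beta chain, read 54.5, 116 and 108 in Ly6Chi moDC, against 541, 481 and 540.1 in CD14hi moDC. H2-Oa and H2-Ob encode H2-O, which inhibits the peptide exchanger H2-M, and H2-Oa read 219, 220.4 and 211 in Ly6Chi moDC, against 476, 749.9 and 1164 in CD14hi moDC and H2-Ob 384, 272 and 194 in Ly6Chi moDC, against 626, 699.8 and 667 in CD14hi moDC. H2-DMb2, an H2-M beta chain, fell as well (log2 difference -1.28 ± 0.14, adjusted p = 1.5e-06). The other lower call was H2-Eb1 and the higher one Ciita, the class II transactivator, and each was lost in 4 of the 6 fits that left out an array. The chains that load most peptide, H2-Aa (log2 difference -0.26 ± 0.13, adjusted p = 0.2) and H2-Ab1 (log2 difference -0.37 ± 0.16, adjusted p = 0.13), and the invariant chain Cd74 (log2 difference -0.42 ± 0.17, adjusted p = 0.093) were not called. In the class I pathway 1 of 17 tested members was higher (5.88%, against 6.81% of all genes) and 0 lower, namely Psmb10, whose call was lost without Ly6Chi moDC replicate 2 or CD14hi moDC replicate 1 or 2, and at -0.30 B2m was not called. Limma gave log2 differences of -2.03 ± 0.19 for H2-Eb2 (adjusted p = 3.2e-07), -1.58 ± 0.22 for H2-Oa (adjusted p = 3.1e-05) and -1.14 ± 0.18 for H2-Ob (adjusted p = 2.0e-04).

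Chemokines carried some of the largest single differences. Of 24 ligands tested, 13 were lower and 3 higher, with a median difference of -0.76. Lower members numbered 13 after quantile normalization, 10 after median centring and 7 in the test against 1.5-fold. Ccl17, the other ligand of CCR4 beside Ccl22, read 3028, 2367 and 1599.8 in Ly6Chi moDC, against 14986, 18055 and 25745 in CD14hi moDC. The membrane-bound chemokine Cx3cl1 read 36.2, 77.1 and 54.9 in Ly6Chi moDC, against 458, 399.8 and 647 in CD14hi moDC, and Ccl8, a monocyte and T cell attractant, 302, 782 and 509 in Ly6Chi moDC, against 3043, 4256 and 1529 in CD14hi moDC. Each lay lower in all Ly6Chi moDC arrays. By limma, log2 differences were -3.05 ± 0.22 for Ccl17 (adjusted p = 1.3e-08), -2.37 ± 0.21 for Cx3cl1 (adjusted p = 1.5e-07) and -2.33 ± 0.38 for Ccl8 (adjusted p = 2.0e-04).

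Ccl5, Ccl4 and Ccl3, which attract T cells and monocytes, were lower as well, with log2 differences of -1.96 for Ccl5, -1.03 for Ccl4 and -0.97 for Ccl3, members chosen after their values were seen. The Ccl3 call was lost after median centring and without CD14hi moDC replicate 3. In the opposite direction, Cxcl9 and Cxcl11, interferon-inducible CXCR3 ligands that also attract T cells, were higher. Cxcl9 read 3831, 3741 and 4143 in Ly6Chi moDC, against 2369, 1874 and 1910.4 in CD14hi moDC and Cxcl11 643, 661 and 508 in Ly6Chi moDC, against 248, 126 and 263 in CD14hi moDC. Ccl24 (eotaxin 2), which attracts eosinophils through CCR3, read 2038, 1542 and 1277 in Ly6Chi moDC, against 388, 436 and 394 in CD14hi moDC. Ccl2 (log2 difference -0.24 ± 0.29, adjusted p = 0.65), Ccl7 (log2 difference -0.56 ± 0.29, adjusted p = 0.21) and Cxcl2 (log2 difference -0.19 ± 0.21, adjusted p = 0.6) were not called. The fit gave log2 differences of 0.92 ± 0.14 for Cxcl9 (adjusted p = 7.9e-05), 1.35 ± 0.23 for Cxcl11 (adjusted p = 3.6e-04) and 1.85 ± 0.24 for Ccl24 (adjusted p = 2.0e-05).

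Of 13 chemokine and chemoattractant receptors tested, 4 were higher and 2 lower. Ccr1, a receptor for CCL3 and CCL5 on monocytes and neutrophils, read 2186, 2278 and 2211 in Ly6Chi moDC, against 698, 609 and 647 in CD14hi moDC. Fpr2, a formyl peptide receptor, read 3494, 2561 and 2988 in Ly6Chi moDC, against 1241, 1134 and 1046 in CD14hi moDC. Both were higher in every Ly6Chi moDC array, and with Ccr2 they stood opposite to Ccr7 and to Cxcr5, the receptor for CXCL13, which was lower (log2 difference -1.24 ± 0.28, adjusted p = 0.0036). Ccrl2 was higher by 0.52, a call that was lost without any 1 array other than CD14hi moDC replicate 3. In the limma fit the log2 differences were 1.70 ± 0.16 for Ccr1 (adjusted p = 2.2e-07) and 1.36 ± 0.30 for Fpr2 (adjusted p = 0.0032).

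**Figure D5:**
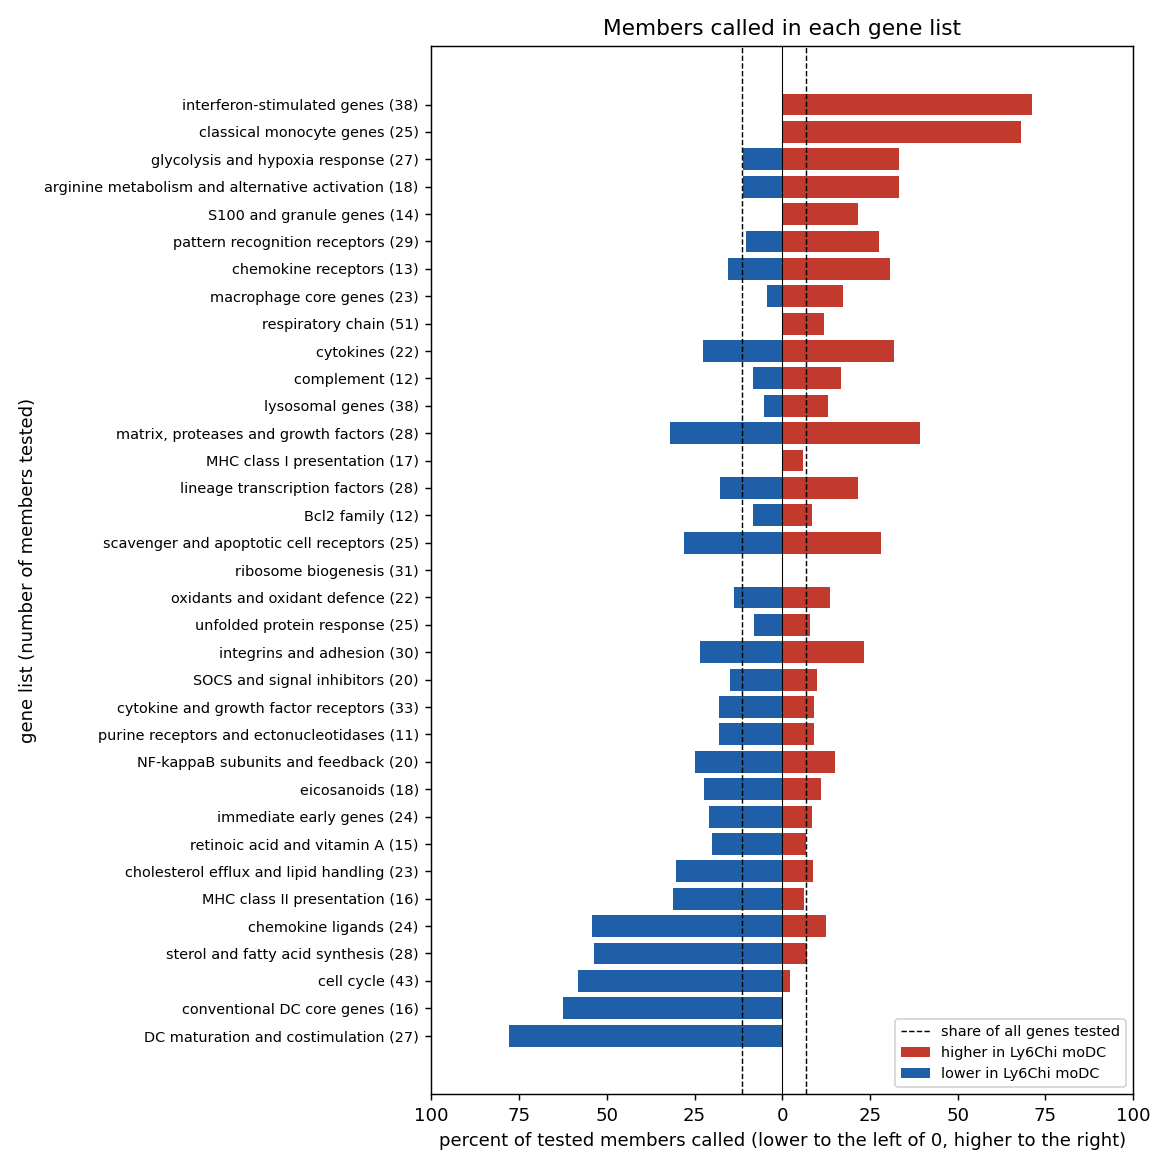
Share of tested members, in percent, called higher and called lower in Ly6Chi moDC for the gene lists, with the shares of all 10934 genes (6.81% higher and 11.4% lower) as lines. The Fc receptor list, with only 8 members tested, is not drawn. The longest bars on the higher side belong to classical monocyte and interferon-stimulated genes, and those on the lower side to DC maturation, conventional DC and cell cycle genes.

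Among cytokines, 7 of 22 tested were higher and 5 lower. The higher count was 4 without Ly6Chi moDC replicate 1 or CD14hi moDC replicate 1 and with the stricter filter. Both subunits of interleukin 12 moved, in opposite directions. Il12b, the p40 subunit shared with interleukin 23, read 95.7, 2.58 and 40.6 in Ly6Chi moDC, against 1360.5, 692 and 1475 in CD14hi moDC. Il12a, the p35 subunit of interleukin 12, read 430.1, 167 and 185 in Ly6Chi moDC, against 76.3, 65.2 and 64.2 in CD14hi moDC. Ebi3, which pairs with p28 or p35 in interleukins 27 and 35, was lower (log2 difference -1.73 ± 0.21, adjusted p = 8.8e-06). Limma differences on the log2 scale were -3.72 ± 0.34 for Il12b (adjusted p = 2.5e-07) and 1.29 ± 0.27 for Il12a (adjusted p = 0.0021).

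The interleukin 6 family ligands oncostatin M (Osm) and leukaemia inhibitory factor (Lif) were higher in Ly6Chi moDC. Osm read 8111, 6136 and 7128 in Ly6Chi moDC, against 2372, 1243 and 2422 in CD14hi moDC and Lif 818, 393 and 399.9 in Ly6Chi moDC, against 94.7, 167 and 258 in CD14hi moDC. Lower was the B cell survival factor BAFF (Tnfsf13b), at 198, 222 and 220.4 in Ly6Chi moDC, against 1201, 984 and 739.9 in CD14hi moDC, and so was Il15, the interleukin presented to NK and memory CD8 T cells, with its receptor chain Il15ra (log2 differences -0.84 and -2.28). Il1b (-0.00), Il6 (-0.04), Il10 (-0.13) and Il23a (-0.07) overlapped between the populations. Tnf was lower (log2 difference -0.92), a call that was lost after median centring and without Ly6Chi moDC replicate 2 or 3 or CD14hi moDC replicate 1 or 3. On the log2 scale the differences were 1.85 ± 0.23 for Osm (adjusted p = 1.4e-05), 1.39 ± 0.29 for Lif (adjusted p = 0.0022) and -1.94 ± 0.22 for Tnfsf13b (adjusted p = 3.0e-06).

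Among 33 cytokine and growth factor receptors tested, 6 were lower and 3 higher. After median centring 6 were lower and 9 higher, so more members were then higher than lower, and after quantile normalization 6 and 1. The higher count was also 1 without Ly6Chi moDC replicate 2 or 3 or CD14hi moDC replicate 1 or 2. Il2ra, the interleukin 2 receptor alpha chain CD25 that mature DC carry, read 251, 112 and 189 in Ly6Chi moDC, against 3009, 2615 and 3042 in CD14hi moDC. Il15ra read 484, 352 and 303 in Ly6Chi moDC, against 2084, 1828 and 2114 in CD14hi moDC. Il18r1 was lower as well (log2 difference -1.55 ± 0.24, adjusted p = 1.2e-04). These lay apart in every array, in the direction of the maturation genes. Differences on the log2 scale came to -3.69 ± 0.22 for Il2ra (adjusted p = 1.0e-09) and -2.28 ± 0.18 for Il15ra (adjusted p = 4.0e-08).

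Pattern recognition receptors gave 8 higher and 3 lower of 29 tested, with a median of 0.26. The higher count was 5 without Ly6Chi moDC replicate 3 or CD14hi moDC replicate 3, and 13 after median centring. Clec4e and Clec7a (Dectin-1), which signal through Syk, were higher, Clec7a by 0.93 (adjusted p = 1.5e-04). Mgl2, a galactose-type lectin of dermal and lung DC, was lower at 571, 481 and 218 in Ly6Chi moDC, against 4596, 5194 and 4899.7 in CD14hi moDC, and so was Cd209a, a DC-SIGN homologue of monocyte-derived DC, at 650.0, 609 and 351 in Ly6Chi moDC, against 1604, 2055 and 2657 in CD14hi moDC. Limma gave log2 differences of -3.47 ± 0.31 for Mgl2 (adjusted p = 1.7e-07) and -1.89 ± 0.39 for Cd209a (adjusted p = 0.0016).

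Trem1, a receptor that amplifies inflammatory signals in monocytes and neutrophils, read 1476, 1168 and 1706 in Ly6Chi moDC, against 445, 183 and 314 in CD14hi moDC, with every Ly6Chi moDC array higher. Toll-like receptors that were not called included Tlr2 (0.43), Tlr4 (0.25) and Tlr9 (0.51). Of the receptors for lipoproteins and dying cells, 7 of 25 tested were higher and 7 lower, and the higher count was 4 without Ly6Chi moDC replicate 3. Olr1 (LOX-1), a receptor for oxidised lipoprotein, read 3112, 2089 and 3287 in Ly6Chi moDC, against 635, 289.7 and 823 in CD14hi moDC. The immune receptor Cd300lf was higher (log2 difference 1.54 ± 0.31, adjusted p = 0.0013), and Scarb1, which takes up lipoprotein cholesterol (log2 difference 1.41 ± 0.21, adjusted p = 7.7e-05). By limma, log2 differences were 2.09 ± 0.23 for Trem1 (adjusted p = 2.8e-06) and 2.26 ± 0.35 for Olr1 (adjusted p = 1.2e-04).

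On the lower side, the fatty acid and thrombospondin receptor Cd36 read 879, 822 and 1269.6 in Ly6Chi moDC, against 7164, 7952 and 7107 in CD14hi moDC. Cd163, a receptor for haptoglobin bound to haemoglobin, read 34.0, 63.6 and 80.1 in Ly6Chi moDC, against 458, 747 and 703 in CD14hi moDC. Both ran opposite to a gene whose product they bind, since Thbs1 and Hp were among the largest rises. Timd4 and Mfge8, which bind phosphatidylserine on dying cells, were lower, with log2 differences of -1.49 and -1.41. Of 12 complement genes, 2 were higher (16.7%) and 1 lower (8.33%), against 6.81% and 11.4% of all genes, and 1 of the higher calls was that of Itgam, which was lost in 12 alternatives. Cfb, factor B of the alternative pathway, was higher at 5913, 4711 and 5161 in Ly6Chi moDC, against 1247, 976 and 1150.5 in CD14hi moDC, while C1qb (-0.30), C3ar1 (-0.16) and C5ar1 (-0.19) were not called. The lower complement call was C1qa (log2 difference -1.02 ± 0.28, adjusted p = 0.014). That call was lost in the test against 1.5-fold and without Ly6Chi moDC replicate 3 or CD14hi moDC replicate 2. Fcgrt, the neonatal Fc receptor, was lower (log2 difference -1.26 ± 0.20, adjusted p = 1.4e-04). The fit gave log2 differences of -2.86 ± 0.18 for Cd36 (adjusted p = 1.5e-09), -2.65 ± 0.26 for Cd163 (adjusted p = 5.6e-07) and 2.18 ± 0.39 for Cfb (adjusted p = 5.8e-04).

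Arg1, Arg2 and Ass1, enzymes of arginine metabolism, were higher in Ly6Chi moDC. In the list that joins arginine metabolism to alternative activation, 6 of 18 tested members were higher and 2 lower. Arg2, the mitochondrial arginase, read 1426, 658 and 1421 in Ly6Chi moDC, against 353, 154 and 311 in CD14hi moDC. Ass1, which rebuilds arginine from citrulline, read 200.0, 260.3 and 252 in Ly6Chi moDC, against 74.6, 48.4 and 135 in CD14hi moDC. Both moved with Arg1, in every array. The alternative activation genes divided, with Chil3 and Ccl24 higher and Retnla and Mgl2 lower, while Mrc1 (-0.47) and Il4ra (0.22) were not called. Nos2, which competes with arginase for arginine, did not pass the filter. In the limma fit the log2 differences were 1.90 ± 0.28 for Arg2 (adjusted p = 8.1e-05) and 1.12 ± 0.24 for Ass1 (adjusted p = 0.0025).

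Retinoic acid genes gave 3 lower (20%) and 1 higher (6.67%) of 15 tested, against 11.4% and 6.81% of all genes. The balance turned after median centring, with 2 lower and 3 higher, and the lower count was 1 with the stricter filter. Beside Aldh1a2, Stra6, the membrane receptor that imports retinol, read 26.7, 17.0 and 5.93 in Ly6Chi moDC, against 270.3, 134 and 398 in CD14hi moDC. Tgm2, a transglutaminase that retinoic acid induces in myeloid cells, was higher at 13242, 13550.0 and 13819 in Ly6Chi moDC, against 6342, 4894 and 9666 in CD14hi moDC. Aldh1a2 and Stra6 were lower in every Ly6Chi moDC array, while the retinoic acid receptor Rara (log2 difference 0.45 ± 0.21, adjusted p = 0.16), Rxra (0.43) and Rdh10 (-0.43) were not called. Limma differences on the log2 scale were -2.17 ± 0.28 for Stra6 (adjusted p = 1.9e-05) and 1.01 ± 0.23 for Tgm2 (adjusted p = 0.0044).

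Cell cycle genes were lower in Ly6Chi moDC. Of 43 tested, 25 were lower and 1 higher, with a median of -0.81 and arrays that did not overlap in the lower direction for 31, against 19.1% of all genes. Higher members numbered 4 after median centring. Lower members numbered 25 after quantile normalization, 21 after median centring and 7 in the test against 1.5-fold. Ube2c, a ubiquitin-conjugating enzyme of the anaphase-promoting complex, read 114, 125 and 55.6 in Ly6Chi moDC, against 579, 747 and 396 in CD14hi moDC. Rrm2, the ribonucleotide reductase subunit of S phase, read 231, 215 and 262 in Ly6Chi moDC, against 662, 1096 and 612 in CD14hi moDC. Ccna2, cyclin A2, read 103, 64.9 and 73.0 in Ly6Chi moDC, against 229, 380.5 and 320.1 in CD14hi moDC. All 3 were lower in every Ly6Chi moDC array. On the log2 scale the differences were -2.07 ± 0.28 for Ube2c (adjusted p = 2.7e-05), -1.51 ± 0.24 for Rrm2 (adjusted p = 1.9e-04) and -1.45 ± 0.21 for Ccna2 (adjusted p = 5.8e-05).

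Members of both replication and mitosis were called. The spindle proteins Kif11 (log2 difference -1.27 ± 0.20, adjusted p = 1.4e-04) and Nusap1 (log2 difference -1.52 ± 0.26, adjusted p = 3.5e-04) were lower. Of the replicative helicase, Mcm2, Mcm3, Mcm5, Mcm6 and Mcm7 were lower, with log2 differences of -1.15, -0.99, -1.16, -0.95 and -1.21, members chosen after their values were seen, and Mcm4 was not called (-0.38). Mki67, the proliferation marker Ki-67, read 1403, 632 and 866 in Ly6Chi moDC, against 2066, 1779.7 and 2294 in CD14hi moDC. It was lower in every Ly6Chi moDC array. Ccne1 (-1.14), Cdkn1a (0.47) and E2f1 (0.02) were not called. The log2 difference of Mki67 was -1.11 ± 0.21 (adjusted p = 7.4e-04).

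Enzymes of sterol and fatty acid synthesis, the targets of SREBP transcription factors, were lower too. Of 28 tested, 15 were lower and 2 higher, with a median of -0.70. The lower count was 14 after quantile normalization, 13 after median centring and 5 in the test against 1.5-fold. Idi1, which isomerises the isoprenoid building blocks, read 1606, 1493 and 1242 in Ly6Chi moDC, against 6024, 5066 and 5028 in CD14hi moDC. Lss, which closes the rings of lanosterol, read 272, 411 and 279 in Ly6Chi moDC, against 929, 1313 and 881 in CD14hi moDC. In both, the Ly6Chi moDC arrays lay below all CD14hi moDC arrays. Limma gave log2 differences of -1.86 ± 0.13 for Idi1 (adjusted p = 9.9e-09) and -1.56 ± 0.20 for Lss (adjusted p = 2.0e-05).

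Further along the pathway, Sc5d (log2 difference -1.10 ± 0.20, adjusted p = 5.9e-04) and Hsd17b7 (log2 difference -1.41 ± 0.20, adjusted p = 3.8e-05), which act late in cholesterol synthesis, were lower, and so was the fatty acid desaturase Fads1 (log2 difference -1.41 ± 0.20, adjusted p = 6.2e-05). Hmgcs1, Fdft1, Cyp51 and the regulator Srebf2 differed by -0.80, -1.09, -1.03 and -0.74 and were chosen after their values were seen. The 2 higher members were the desaturase Scd2 (log2 difference 1.04 ± 0.24, adjusted p = 0.0041) and the regulator Srebf1 (log2 difference 0.75 ± 0.25, adjusted p = 0.048), whose call was lost in 11 alternatives, among them each fit without 1 array other than Ly6Chi moDC replicate 1. Not called were Insig1 (-0.08), Mvd (-0.08) and Acly (0.21). In lipid handling, 7 of 23 tested were lower and 2 higher, and 3 and 7 after median centring. Fabp4, a fatty acid-binding protein, read 325, 163 and 197 in Ly6Chi moDC, against 2744, 1608 and 2477 in CD14hi moDC, and Ch25h, which makes 25-hydroxycholesterol, 329.8, 325 and 209 in Ly6Chi moDC, against 2216, 1899 and 1366 in CD14hi moDC. Apoc2, the cofactor of lipoprotein lipase, was higher (log2 difference 2.08 ± 0.28, adjusted p = 2.8e-05). The efflux transporters Abca1 (0.50) and Abcg1 (0.38) were not called. By limma, log2 differences were -3.07 ± 0.24 for Fabp4 (adjusted p = 2.8e-08) and -2.47 ± 0.25 for Ch25h (adjusted p = 6.3e-07).

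Promoters of the called cell cycle and sterol genes are shown for the CCAAT box, a motif bound by NF-Y, searched as CCAAT on both strands. Of 23 windows that matched 21 of the 25 cell cycle genes called lower, 18 held it (78.3%), and of 10 windows of sterol and fatty acid genes called lower, 9 held it (90%). It stood in 37.4% of all windows in the table and in 37.4% of windows of genes tested. In the windows of all genes called and at least 2-fold lower its share was 35.7%. Both lists were made by gene function, and their members that were not called were not compared. A link of the motif to the fall was therefore not tested. The windows of Ube2c (chr2:164769679-164769978, plus strand), Rrm2 (chr12:24708004-24708303, plus strand), Idi1 (chr13:8885356-8885655, plus strand) and Lss (chr10:76531355-76531654, plus strand) are printed 5′ to 3′ on the same build with every match on either strand in capitals.
Ube2c: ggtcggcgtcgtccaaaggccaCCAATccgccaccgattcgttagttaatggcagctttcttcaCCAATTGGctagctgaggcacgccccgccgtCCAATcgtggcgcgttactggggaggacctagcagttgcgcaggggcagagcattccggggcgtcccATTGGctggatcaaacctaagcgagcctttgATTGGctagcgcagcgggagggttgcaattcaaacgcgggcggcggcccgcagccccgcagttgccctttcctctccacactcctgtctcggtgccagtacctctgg
Rrm2: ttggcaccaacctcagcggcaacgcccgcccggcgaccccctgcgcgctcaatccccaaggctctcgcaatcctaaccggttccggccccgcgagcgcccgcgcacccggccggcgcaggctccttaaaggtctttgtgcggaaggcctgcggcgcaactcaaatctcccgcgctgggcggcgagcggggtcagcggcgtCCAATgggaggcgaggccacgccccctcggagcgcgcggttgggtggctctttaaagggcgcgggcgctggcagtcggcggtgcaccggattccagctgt
Idi1: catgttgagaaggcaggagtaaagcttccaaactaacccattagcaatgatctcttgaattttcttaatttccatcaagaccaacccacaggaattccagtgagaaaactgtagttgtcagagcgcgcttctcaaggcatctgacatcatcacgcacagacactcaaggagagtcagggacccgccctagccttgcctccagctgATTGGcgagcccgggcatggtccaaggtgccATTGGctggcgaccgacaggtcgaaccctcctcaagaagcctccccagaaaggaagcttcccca
Lss: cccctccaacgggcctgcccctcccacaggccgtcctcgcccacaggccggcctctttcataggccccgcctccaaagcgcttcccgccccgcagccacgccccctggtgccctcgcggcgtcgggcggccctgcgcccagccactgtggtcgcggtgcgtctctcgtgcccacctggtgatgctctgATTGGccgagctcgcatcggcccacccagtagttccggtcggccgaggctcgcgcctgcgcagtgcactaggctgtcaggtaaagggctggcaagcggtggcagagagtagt
The printed windows were chosen from those that held the motif, so its presence in them was fixed by the choice. Ube2c held 6 matches and Rrm2 1, while Idi1 held 2 and Lss 1. Other motifs searched on both strands were the AP-1 site as TGANTCA, the cyclic AMP response element as TGACGTCA, the E-box as CACGTG, the TATA box as TATAAA and the GC box as GGGCGG. In windows of genes called and at least 2-fold higher, the AP-1 motif stood in 14.9% and the TATA box in 17.5%, against 5.18% and 7.21% of windows of genes tested and 7.81% and 13.6% of all windows. The core of the interferon-stimulated response element stood in 5.15% there, against 3.15% of windows of genes tested. The remaining motifs were rarer there than in windows of genes tested. The GC box stood in 43.3% against 61.9%, the E-box in 5.15% against 10.1% and the cyclic AMP response element in 0.515% against 2.98%. The CCAAT box stood in 35.1% against 37.4%. Windows of genes at least 2-fold lower departed from those of genes tested in the same direction for each motif. There the AP-1 motif stood in 6.63%, the TATA box in 9.04% and the GC box in 54.8%. The E-box stood in 6.33% and the cyclic AMP response element in 1.96%. In windows of the called cell cycle and sterol genes, the GC box stood in 78.3% and 80%. A link of these motifs to either direction was not tested.

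Energy metabolism showed smaller shifts. Of 27 glycolysis and hypoxia genes tested, 9 were higher and 3 lower, and the higher count was 5 without Ly6Chi moDC replicate 1 or 3 or CD14hi moDC replicate 1 or 2, and 14 after median centring. Vegfa, the endothelial growth factor induced in hypoxia, read 2021, 1215 and 1642 in Ly6Chi moDC, against 430.4, 129.8 and 435 in CD14hi moDC. Hif1a, the oxygen-regulated transcription factor, read 5006, 3804 and 3917 in Ly6Chi moDC, against 2165, 2452 and 2645 in CD14hi moDC, and Pdk1, which restrains pyruvate oxidation, was higher (log2 difference 0.94 ± 0.21, adjusted p = 0.0038). Adm (adrenomedullin), also induced in hypoxia, went the other way at 1874, 1072 and 1608 in Ly6Chi moDC, against 7557, 6091 and 12199 in CD14hi moDC, as did the glycolytic regulator Pfkfb3 (log2 difference -1.21 ± 0.17, adjusted p = 3.9e-05). The fit gave log2 differences of 2.24 ± 0.39 for Vegfa (adjusted p = 3.9e-04), 0.79 ± 0.14 for Hif1a (adjusted p = 5.4e-04) and -2.44 ± 0.29 for Adm (adjusted p = 7.4e-06).

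For the respiratory chain, 43 of 51 tested members had a positive difference, with a median of 0.22, but only 6 were called higher and 0 lower. The higher count was 2 without Ly6Chi moDC replicate 2 or 3 or CD14hi moDC replicate 1 or 3, and 28 after median centring, so it depended on scaling and on single arrays. Of 38 lysosomal genes, 5 were higher and 2 lower. That higher count was 2 or 3 when any Ly6Chi moDC array or CD14hi moDC replicate 1 or 2 was left out, and 10 after median centring. Ctsl, cathepsin L, was higher (log2 difference 0.96 ± 0.23, adjusted p = 0.0064) and Ctsf, cathepsin F, lower (log2 difference -1.18 ± 0.25, adjusted p = 0.0022). Ribosome biogenesis gave 0 calls by limma among 31 tested, with 1 member lower at an unadjusted p under 0.05 and a median of -0.01.

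Growth factors, matrix genes and proteases changed in both directions. Of 28 tested, 11 were higher and 9 lower, which is 39.3% and 32.1%, and after median centring 13 and 8. Beside Thbs1 and Vegfa, the higher members included F10, coagulation factor X, at 6404, 3379.8 and 3407 in Ly6Chi moDC, against 1491, 1117 and 1626 in CD14hi moDC, and Ecm1, an extracellular matrix glycoprotein (log2 difference 1.64 ± 0.18, adjusted p = 2.0e-06). Among the lower were Igf1, the insulin-like growth factor, at 929, 592 and 705 in Ly6Chi moDC, against 3839.8, 3947 and 3502 in CD14hi moDC, and Pdgfc, a platelet-derived growth factor (log2 difference -2.02 ± 0.23, adjusted p = 3.4e-06). The metalloproteinases divided, with Mmp8 higher and the macrophage elastase Mmp12 and the collagenase Mmp13 lower, Mmp12 at 1895, 976 and 716 in Ly6Chi moDC, against 5683, 5911 and 5573 in CD14hi moDC and Mmp13 at 206, 129 and 124 in Ly6Chi moDC, against 1414, 927 and 919.6 in CD14hi moDC. In the limma fit the log2 differences were 1.56 ± 0.35 for F10 (adjusted p = 0.0034), -2.29 ± 0.21 for Igf1 (adjusted p = 2.5e-07), -2.32 ± 0.31 for Mmp12 (adjusted p = 2.1e-05) and -2.48 ± 0.23 for Mmp13 (adjusted p = 2.5e-07).

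Adhesion molecules also divided, with 7 of 30 tested higher and 7 lower, and 9 and 5 after median centring. Vcam1, a ligand of the integrin alpha 4 beta 1, read 260.0, 162 and 255 in Ly6Chi moDC, against 1909, 1027 and 1295 in CD14hi moDC. The tetraspanin Cd81 was lower (log2 difference -1.90 ± 0.18, adjusted p = 4.5e-07), as were Itgb1, the beta 1 integrin chain (log2 difference -0.93 ± 0.16, adjusted p = 4.2e-04), and the tight junction gene Cldn1 (log2 difference -2.36 ± 0.24, adjusted p = 8.4e-07). Higher were Cdh1, E-cadherin, at 1203, 952 and 837 in Ly6Chi moDC, against 234, 341 and 472 in CD14hi moDC, and the collagen receptor chain Itga1 (log2 difference 1.00 ± 0.24, adjusted p = 0.0062). Limma differences on the log2 scale were -2.38 ± 0.24 for Vcam1 (adjusted p = 6.3e-07) and 1.42 ± 0.22 for Cdh1 (adjusted p = 1.0e-04).

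Smaller lists added single genes. Hpgds, which makes prostaglandin D2, read 77.1, 80.3 and 99.7 in Ly6Chi moDC, against 1079, 1131 and 909 in CD14hi moDC, and was 8.02-fold lower (adjusted p = 2.1e-07). Hpgd, which inactivates prostaglandins, was lower (log2 difference -1.01 ± 0.24, adjusted p = 0.0062). In the eicosanoid list as a whole, 4 of 18 tested were lower (22.2%) and 2 higher (11.1%), against 11.4% and 6.81% of all genes. The higher calls, Ptges and Pla2g4a, were lost in 7 and 10 alternatives. Of the lower calls, Ptger4 was lost after median centring. Nt5e (CD73), which makes adenosine, read 476, 370.5 and 405 in Ly6Chi moDC, against 73.4, 44.9 and 147 in CD14hi moDC. The metallothionein Mt2 was lower at 1561, 1917 and 1822 in Ly6Chi moDC, against 7289.5, 7476 and 9684 in CD14hi moDC, within an oxidant list of 22 that gave 3 higher and 3 lower. After median centring it gave 5 higher and 1 lower, and after quantile normalization 1 and 3 (1 higher also without Ly6Chi moDC replicate 1 or CD14hi moDC replicate 1 or 2). On the log2 scale the differences were 1.82 ± 0.26 for Nt5e (adjusted p = 4.3e-05) and -2.17 ± 0.18 for Mt2 (adjusted p = 8.0e-08).

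Of 25 genes of the unfolded protein response, 2 were higher and 2 lower, of 12 in the Bcl2 family 1 and 1, of 11 purine receptors and ectonucleotidases 1 and 2, and of 8 Fc receptors 1 and 1. These are 1 or 2 genes a list, against 6.81% and 11.4% of all genes. After median centring the counts became 5 and 1, 2 and 0, 4 and 1, and 2 and 1, in the same order. Of 14 S100 and granule genes, 3 were higher and 0 lower, and 1 higher without Ly6Chi moDC replicate 1 or 2 or CD14hi moDC replicate 1 or 2.

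Signalling genes were called in both directions. Of 20 NF-kappaB genes, 5 were lower and 3 higher, and the higher count was 0 or 1 without Ly6Chi moDC replicate 1 or 3 or CD14hi moDC replicate 1 or 2. Map3k14 (NIK), the kinase of the pathway that activates RelB, was lower (log2 difference -1.04 ± 0.13, adjusted p = 1.6e-05) with Relb and Traf1 (-1.11), while Nfkb2 (-0.48), Rela (-0.00) and Nfkbia (-0.23) were not called. Of 24 immediate early genes, 5 were lower and 2 higher (3 lower after median centring). Nr4a2 was higher at 6778, 6207 and 8647 in Ly6Chi moDC, against 1896, 2064 and 3747 in CD14hi moDC and Egr1 lower at 4187, 4756 and 4717 in Ly6Chi moDC, against 10314, 11137 and 12413 in CD14hi moDC, while Fos (0.10), Jun (-0.26) and Atf3 (0.05) were not called. Among 20 signal inhibitors, Socs2 was lower with 2 others, and 2 were higher, or 4 after median centring. Differences on the log2 scale came to 1.52 ± 0.28 for Nr4a2 (adjusted p = 6.7e-04) and -1.30 ± 0.13 for Egr1 (adjusted p = 1.1e-06).

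Markers of other lung cells were read for both sorts, and among all genes 6.81% were higher and 11.4% lower. Alveolar macrophage markers gave 3 lower and 1 higher of 10 tested, where the higher one was Chil3 and Marco read 95.3, 102 and 96.3 in Ly6Chi moDC, against 844, 509 and 647 in CD14hi moDC. Of these differences 8 were negative and 2 positive. Arrays did not overlap in the lower direction for 5 of the 10, against 19.1% of all genes, and in the higher direction for 1. Interstitial macrophage markers gave 3 lower of 7, namely C1qa, Cd163 and Lyve1, with a median difference of -0.70. All 7 differences were negative, and arrays did not overlap in the lower direction for 6, against 19.1% of all genes. Fibroblast markers gave 1 lower of 6, with all 6 differences negative. NK cell markers gave 1 lower of 4 and plasmacytoid DC markers 1 lower of 6. T cell markers gave 2 lower of 3 tested, among them Cd4, which DC can carry, at 4.03, 6.66 and 9.52 in Ly6Chi moDC, against 749, 673 and 565 in CD14hi moDC, while Cd3d, Cd3e, Cd3g and Lat did not pass the filter and had no mean above 50.8. Cd79a, Cd79b, Ms4a1 and Cd22 of B cells gave 0 calls by limma (0 lower and 0 higher, with differences from -0.49 to 0.43 and 0 higher and 0 lower at an unadjusted p under 0.05). Epithelial markers gave 2 lower and 1 higher of 9, and endothelial markers 1 higher of 3, Cdh5 at 162, 99.5 and 210.4 in Ly6Chi moDC, against 45.1, 31.2 and 9.30 in CD14hi moDC. Summed over all markers on the array, signals were 7037 to 9363 in Ly6Chi moDC and 4489.7 to 8157 in CD14hi moDC for alveolar macrophages. That sum includes the bright Chil3, which was 7.73-fold higher and is also on the classical monocyte list. It therefore does not show the direction of most alveolar macrophage markers. The sums were 40016 to 46772 in Ly6Chi moDC and 56412 to 66827 in CD14hi moDC for interstitial macrophages. They were 1021 to 1112 in Ly6Chi moDC and 1979 to 2156 in CD14hi moDC for T cells, 2909.6 to 4262 in Ly6Chi moDC and 3163 to 4398 in CD14hi moDC for epithelium and 573 to 1012 in Ly6Chi moDC and 286 to 599.9 in CD14hi moDC for endothelium. For fibroblasts the sums were 3074.7 to 4745.8 in Ly6Chi moDC and 5019.6 to 5946.4 in CD14hi moDC. The part of such cells in the results was not tested.
 Limma gave log2 differences of -2.25 ± 0.50 for Marco (adjusted p = 0.0032), -3.64 ± 0.31 for Cd4 (adjusted p = 8.8e-08) and 1.39 ± 0.30 for Cdh5 (adjusted p = 0.0023).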

How the data were processed

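Gene expression was measured on single-colour Affymetrix arrays of amplified RNA from sorted lung DC. The authors deposited linear intensity values made with MAS5, per the submitters' processing notes, and all arrays had the same 2% trimmed mean. Neither the MAS5 version nor detection calls were given, so probe sets were filtered on signal, which can keep or drop dim genes.

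From 45101 probe sets, 64 controls were removed. Probe sets brighter than the array median in at least 3 of 12 arrays were retained, 25156 in all. The platform annotation gave 34945 probe sets 1 gene symbol, 932 several and 9160 none, and genes were named from the first kind. The kept probe set with the highest mean stood for its gene, which mattered for 5649 of 10934 genes. Of 1022 called genes with several kept probe sets, 3 had another probe set called in the opposite direction, none of them a gene named by the rule below.

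A pseudocount of 50 was added before log2, computed here from the deposited intensity, and population means were estimated from all 12 arrays in limma 3.58.1 (R 4.3.3) with lmFit and eBayes (intensity trend, 8 residual degrees of freedom). Tests were two-sided with Benjamini-Hochberg adjustment, and all adjusted p values come from limma. Replicates came from separate pools of mice, per the labels' protocols. No batch is given in the labels.

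Named genes were the 12 largest rises and 12 largest falls among called genes without overlap, the markers, and up to 5 called members per direction of each list with the largest differences. A further 49 list members were named after their values were seen. The members, lists and markers were chosen with earlier results of these data known, so counts over lists are descriptions. On simulated data with 200 of 10934 genes changed in this comparison, limma recovered 81% of the 2-fold and 99% of the 4-fold ones, 8 of 188 calls were false, and unchanged data gave 0 calls. The simulation had independent noise and no shift in array medians, while 18.2% of genes were called in the data. Its rates therefore do not give the error rate of these calls. Alternatives covered scaling, pseudocount, filter, choice of probe set, arrays fitted, trend, a test against a 1.5-fold difference, replicate number and single arrays left out. Figures were drawn with matplotlib 3.10.9.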

Additional observations from a re-analysis of the deposited data

How the results depend on the processing

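Under 18 alternatives, none of the 210 called genes named by the rule changed sign with a call, and 104 were called in all of them. The other 106 were lost in the limma test against a 1.5-fold difference, which left 98 genes higher and 379 lower in Ly6Chi moDC, and 57 of them were lost elsewhere too. Of the 49 genes named later, 7 lost their call outside that test. In the same test, higher members fell from 9 to 1 for glycolysis and hypoxia, 8 to 2 for pattern recognition and 11 to 4 for matrix genes. For cytokines they fell from 7 to 1 and lower members from 5 to 3. For adhesion the higher members fell from 7 to 1 and the lower from 7 to 3. Median centring gave 1853 higher and 832 lower, a filter at the 75th percentile 787 lower among 7074 genes tested, and testing every probe set 1165 higher and 2228 lower among 21148. Leaving out 1 array gave 489 to 584 higher and 994 to 1101 lower, and 489 was the count without Ly6Chi moDC replicate 3. The filter and the probe set setting change the number of features tested, and other causes were not tested. Same-numbered arrays of the populations had deviations that correlated at 0.13, 0.14 and 0.02, so the numbers were not taken as pairs, although 3 of 3 Ly6Chi moDC and 2 of 3 CD14hi moDC arrays correlated best with their own number. The fit with replicate block gave 785 higher and 1275 lower. The number of arrays and, for dim genes, signals near background limit the precision.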
